A study of Populus alba x Populus glandulosa with 12 samples.

Results

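The genes described here encode the 2 enzymes that commit carbon to proline and take it back out. They are the gene models of 84K poplar whose KEGG orthology (KO) name in the table of all genes contains the symbol P5CS or PRODH. The rule found 8 genes among 85392 gene models, 4 for P5CS and 4 for PRODH. Of the 8, 7 had at least 1 FPKM (fragments counted per gene, scaled by its length and by the size of the library) in at least 3 of the 12 libraries and were tested together with the other genes that did, 40736 in all. The eighth, PRODH gene A17G000593, stayed under 1 FPKM in every library and is described by its values. Each of the 7 tested genes was at 1.47 FPKM or more in every library, so none entered the test through its high days alone.

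Leaves of the wild-type poplar clone 84K, which is a Populus alba × Populus glandulosa hybrid, were sampled after 0, 3, 6 and 9 days of drought. Each day had 3 libraries, 12 altogether. Day 0 served as the control. No watered plants of days 3, 6 or 9 were analysed here, so drought cannot be told apart from the time that passed. The labels also give each day a batch of its own, and a batch effect cannot be told apart from a change between days. The replicates are called biological, but nothing says that they came from separate plants, and p-values measure the spread between these libraries.

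Proline is an amino acid that many plants accumulate when water is short, where it acts as a compatible solute. P5CS (delta-1-pyrroline-5-carboxylate synthetase) is a bifunctional enzyme that turns glutamate into the intermediate from which P5C reductase makes proline, and it is regarded as the controlling step. PRODH (proline dehydrogenase) sits in the mitochondrion and oxidises proline back to that intermediate, which P5C dehydrogenase returns to glutamate. In Arabidopsis, drought and abscisic acid are known to induce a P5CS gene, while a main PRODH gene is known to be repressed by water stress and induced by proline and on rewatering.

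By day 9 every tested P5CS and PRODH gene had risen, P5CS genes by log2 changes between 0.29 and 1.17 and PRODH genes by log2 changes between 1.69 and 3.01. The 3.01, and the day 6 PRODH median of 2.94 given below, belong to B17G000516, whose annotation also holds a second enzyme. PRODH A04G001115 and B04G001098 rose by 2.39 and 1.69 at day 9. The difference between the families carries no test. "Rose" and "fell" are used for an adjusted p under 0.05 from limma, on log2(FPKM + 1), where changes of weakly expressed genes come out too small. At day 3 against day 0, 4 of the 7 tested genes rose and the other 3 did not pass, where 22.6% of all tested genes rose and 25.2% fell. At day 6 against day 0, 5 of 7 rose and the other 2 did not pass, against 29.2% of all tested genes rising and 47.6% falling. At day 9 against day 0 all 7 tested genes rose, against 30.9% of all tested genes rising and 46% falling. The 3 comparisons share the day 0 libraries. The median log2 change of the 4 P5CS genes was 0.09 at day 3, 0.15 at day 6 and 0.49 at day 9, that of the 3 tested PRODH genes was 0.55, 2.94 and 2.39, and that of all tested genes was -0.01, -0.21 and -0.17. Scaling the libraries by median ratios raised log2 changes against day 0 by a median of 0.23 at day 6 and 0.18 at day 9, and by 0.001 at day 3. With that scaling 7 of 7 rose at day 6, where 38.5% of all tested genes rose and 37.8% fell.

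Successive drought days were also compared. At day 6 against day 3, the 3 tested PRODH genes and 1 of the 4 P5CS genes were called higher and the other 3 did not pass, where 25.7% of all tested genes were called higher and 46.9% lower. With median-ratio scaling 7 of 7 were called higher, where 36.4% of all tested genes were higher and 35.2% lower. At day 9 against day 6, the 4 P5CS genes were called higher and 1 PRODH gene lower, where 12.9% of all tested genes were called higher and 8.73% lower. With median-ratio scaling 3 P5CS genes were called higher and 1 PRODH gene lower there, where 9.6% of all tested genes were higher and 12.8% lower.

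**Figure D1:**
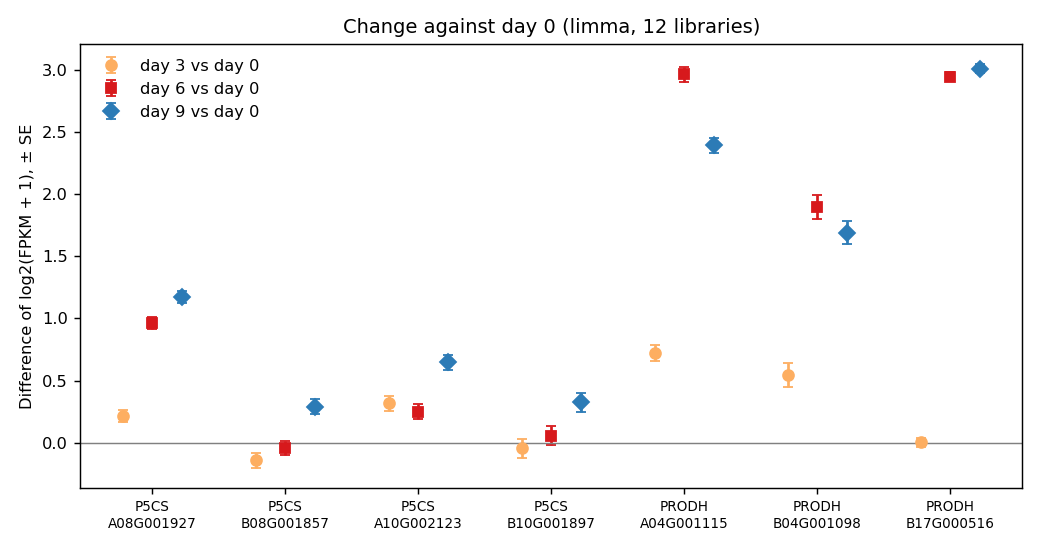
Change of the 7 tested genes against day 0, as differences of log2(FPKM + 1) from limma over 12 libraries; points are estimates and bars their standard errors, for days 3, 6 and 9 in that order. The PRODH points of days 6 and 9 lie between 1.69 and 3.01, above every P5CS point, the highest of which is 1.17. The 3.01 is that of B17G000516, whose annotation also holds a second enzyme.

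The leaf label was checked against mesophyll genes. Their summed level (42 genes of the small subunit of Rubisco, antenna proteins, psbO and phosphoribulokinase) was between 18500 and 19000 FPKM at day 0, 8650 and 9940 at day 3, 528 and 544 at day 6, and 503 and 624 at day 9. The vascular marker XCP, a xylem cysteine protease with 8 genes, summed to between 67.7 and 83.0 FPKM at day 0, 55.6 and 72.2 at day 3, 31.2 and 37.5 at day 6, and 27.4 and 31.7 at day 9. Other vascular symbols looked for (CESA4, CESA7, CESA8 and SUC2) matched no KO name. Guard cell symbols were also summed over the whole leaf, and levels within guard cells were not measured. The regulator FAMA (4 genes) summed to between 19.1 and 21.7 FPKM at day 0, 14.1 and 16.0 at day 3, 2.07 and 2.20 at day 6, and 1.05 and 1.93 at day 9. The anion channel entry SLAC1 (12 genes) moved the other way, with sums between 7.76 and 10.8, 8.51 and 16.8, 40.0 and 47.7, and 37.6 and 45.2 on the same days. These genes mark cell types but also moved with the drought, and their part in the changes of P5CS and PRODH was not tested. In whole leaves, fewer cells of a type and less RNA per cell cannot be told apart.

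Among the synthesis genes, A08G001927 (Pag.A08G001927.v3.1) changed most. It was at 4.00, 4.02 and 4.14 FPKM at day 0, 4.98, 4.64 and 4.98 at day 3, 8.84, 8.79 and 8.91 at day 6, and 10.56, 10.53 and 10.13 at day 9. The days did not overlap at any step, and the level was higher on each later day. The log2 change against day 0 was 0.21 at day 3 (SE 0.049, limma adjusted p 0.00343), 0.96 at day 6 (limma adjusted p 4.22e-09) and 1.17 at day 9 (limma adjusted p 7.18e-10). In FPKM, the mean at day 9 was 2.57 times that of day 0. Day 6 against day 3 gave a log2 change of 0.75 and day 9 against day 6 one of 0.21, with limma adjusted p 6.78e-08 and 0.0101.

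Its counterpart B08G001857 (Pag.B08G001857.v3.1) had 8.27, 9.19 and 9.45 FPKM at day 0, 7.71, 7.94 and 8.48 at day 3, 8.31, 8.68 and 9.04 at day 6, and 11.1, 11.4 and 11.03 at day 9. The libraries of days 3, 6 and 0 overlapped in that order of level, and those of day 9 lay above all others. It rose at day 9 against day 0 by a log2 change of 0.29 (SE 0.059, limma adjusted p 7.84e-04) and against day 6 by 0.33 (limma adjusted p 0.00248). At day 3 the log2 change was -0.14 with a limma adjusted p of 0.0727, and without library 1 of day 0 it was -0.19 with an adjusted p of 0.0236. At day 6 against day 0 the log2 change was -0.04 (limma adjusted p 0.533), and with median-ratio scaling it was 0.21 (adjusted p of 0.00714).

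The other P5CS genes both carry the number 10 in their IDs. A10G002123 (Pag.A10G002123.v3.1) was at 8.05, 8.56 and 9.00 FPKM at day 0, 11.39, 10.7 and 10.51 at day 3, 10.86, 9.83 and 10.29 at day 6, and 14.83, 13.52 and 13.44 at day 9. Days 3 and 6 overlapped, day 0 lay below both and day 9 above both. It rose against day 0 by log2 changes of 0.32 at day 3 (SE 0.060, limma adjusted p 0.00109), 0.25 at day 6 (adjusted p of 0.00266) and 0.65 at day 9 (adjusted p of 1.14e-06). Day 6 against day 3 did not pass (log2 change -0.07, limma adjusted p 0.332), and with median-ratio scaling it became a rise of 0.19 (adjusted p of 0.023). Day 9 against day 6 was a rise of 0.40 (limma adjusted p 9.68e-04).

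B10G001897 (Pag.B10G001897.v3.1) had 9.44, 10.95 and 9.71 FPKM at day 0, 9.83, 10.22 and 9.05 at day 3, 10.02, 10.57 and 10.83 at day 6, and 12.4, 14.24 and 11.84 at day 9. The first 3 of these days overlapped one another, and the day 9 libraries lay above them. It rose at day 9 against day 0 by a log2 change of 0.32 (SE 0.077, limma adjusted p 0.00223). The rise at day 9 against day 6, 0.27 with a limma adjusted p of 0.0298, was lost with median-ratio scaling (0.21, adjusted p of 0.0684), in a fit of those days alone (adjusted p of 0.0599) and without any one of the libraries of day 6 or library 2 of day 9 (adjusted p between 0.0505 and 0.0982). At day 6 against day 0 the log2 change was 0.06 (limma adjusted p 0.504), and 0.31 with median-ratio scaling (adjusted p of 0.00253).

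**Figure D2:**
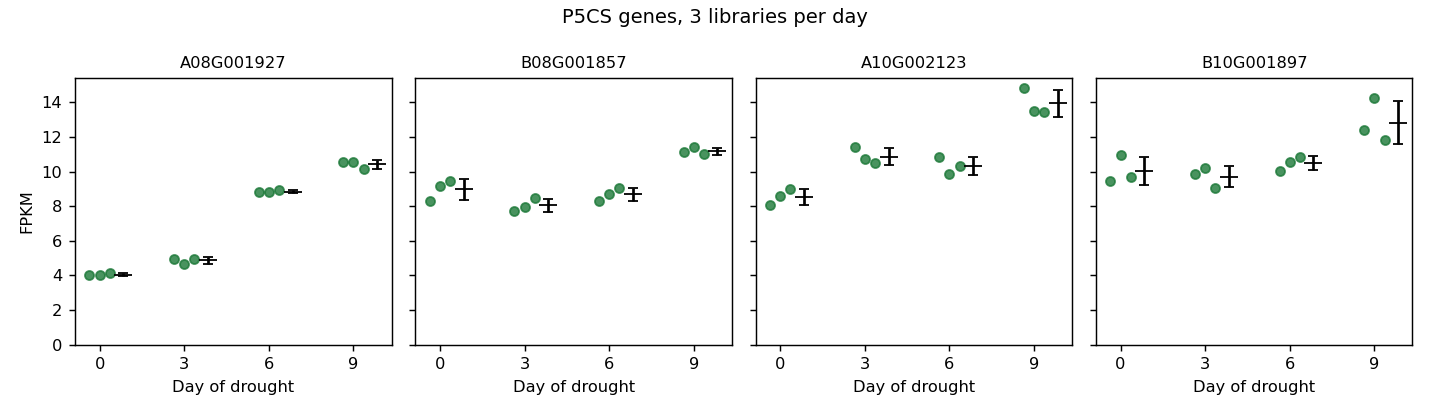
FPKM of the 4 P5CS genes by day of drought on one common axis; each dot is a library, and the bar beside the dots is the mean ± SD (n = 3). A08G001927 started at about 4 FPKM and reached 10.4 at day 9, while the other 3 genes started between 8.54 and 10.0 and lay between 11.2 and 13.9 at day 9.

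Of the breakdown genes, A04G001115 (Pag.A04G001115.v3.1) rose from the first sampled drought day on. It was at 2.04, 2.41 and 2.32 FPKM at day 0, 4.48, 4.01 and 4.60 at day 3, 25.26, 24.36 and 23.37 at day 6, and 15.61, 16.44 and 16.12 at day 9. No days overlapped, and the order of levels was day 0, day 3, day 9 and day 6. The log2 change against day 0 was 0.72 at day 3 (SE 0.063, limma adjusted p 2.29e-06), 2.96 at day 6 (adjusted p of 2.27e-12) and 2.39 at day 9 (adjusted p of 1.39e-11). The mean FPKM of day 6 was 10.8 times that of day 0, the highest ratio of the tested genes of either family. It fell late in the drought, with a log2 change of -0.57 at day 9 against day 6 (limma adjusted p 1.3e-04), the one fall called among the 7 genes in the 5 comparisons of days.

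B04G001098 (Pag.B04G001098.v3.1) had 1.92, 1.48 and 1.47 FPKM at day 0, 3.04, 2.87 and 2.57 at day 3, 7.96, 10.1 and 8.26 at day 6, and 7.66, 7.21 and 7.45 at day 9. It had the same order of days as A04G001115, again without overlap, and lay below that gene on every day. It rose by log2 changes of 0.55 at day 3 (SE 0.096, limma adjusted p 6.06e-04), 1.90 at day 6 (adjusted p of 4.3e-09) and 1.69 at day 9 (adjusted p of 1.25e-08), each against day 0. Day 9 against day 6 did not pass, with a log2 change of -0.21 and a limma adjusted p of 0.158.

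A17G000593 (Pag.A17G000593.v3.1) was at 0.75, 0.70 and 0.71 FPKM at day 0, 0.36, 0.41 and 0.31 at day 3, 0.69, 0.68 and 0.72 at day 6, and 0.88, 0.60 and 0.70 at day 9. Its day 3 libraries lay below all others, and days 0, 6 and 9 overlapped. It was too low for the main test. In a fit with no filter on low values, over 58417 genes, it fell at day 3 by 0.34 on the log2 scale (limma adjusted p 0.00345), and its changes at days 6 and 9 against day 0 were -0.02 and 0.002 (adjusted p of 0.861 and 1 from limma).

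**Figure D3:**
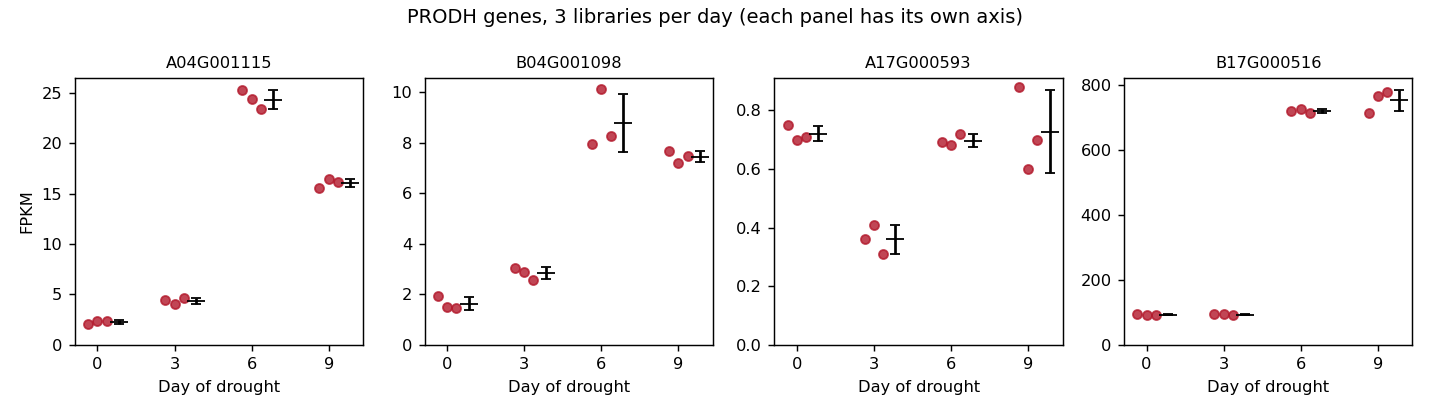
FPKM of the 4 PRODH genes by day of drought, each panel with an axis of its own; each dot is a library, and the bar beside the dots is the mean ± SD (n = 3). A04G001115 and B04G001098 were highest at day 6, at 24.3 and 8.77 FPKM, A17G000593 stayed under 1 FPKM, and B17G000516 lay between 90.68 and 95.21 FPKM at days 0 and 3 and between 713.55 and 777.04 FPKM at days 6 and 9.

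The fourth gene named PRODH, B17G000516 (Pag.B17G000516.v3.1), was far more abundant than the others. Its values were 95.21, 90.68 and 92.15 FPKM at day 0, 94.75, 93.29 and 91.24 at day 3, 718.92, 725.79 and 713.55 at day 6, and 714.69, 765.23 and 777.04 at day 9. Days 0 and 3 overlapped, as did days 6 and 9, and the later pair lay above the earlier one. Day 3 against day 0 did not pass (log2 change 0.01, limma adjusted p 0.905). It rose by 2.94 at day 6 (SE 0.036, limma adjusted p 3.04e-14) and by 3.01 at day 9 (adjusted p of 2.86e-14), each against day 0, and by 2.94 at day 6 against day 3 (adjusted p of 1.9e-13). This gene made up between 92.3% and 97.0% of the summed FPKM of the 4 PRODH genes in every library.

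The annotation of B17G000516 differs from that of the other PRODH genes. Among the 4 genes with the Gene Ontology term for proline dehydrogenase activity, it is the 1 that also carries the term for adenosylmethionine decarboxylase activity. That enzyme, named AMD1 or speD in KEGG, makes decarboxylated S-adenosylmethionine for the polyamines spermidine and spermine. In the A17 series of IDs the gene after PRODH A17G000593 is a separate AMD1 gene, A17G000594, and the gene after that is named RRP7. The KO name of A17G000594 lists another protein, EVI5, beside AMD1, as does that of AMD1 gene A04G001121. How much of their levels belongs to either name was not tested. In the B17 series the gene after B17G000516 is RRP7, with no AMD1 gene of its own in between. Gene lengths and read positions were not used here, so the reads of a proline dehydrogenase part and of an adenosylmethionine decarboxylase part of B17G000516 cannot be told apart.

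In level, B17G000516 was nearer to the AMD1 gene on A17 than to the other PRODH genes. AMD1 A17G000594 (Pag.A17G000594.v3.1) had 167 ± 3.36 FPKM at day 0, 142 ± 2.53 at day 3, 638 ± 8.46 at day 6 and 628 ± 42.7 at day 9 (SD, n = 3 each). The ratio of B17G000516 to A17G000594 within a library was 0.555 ± 0.013 at day 0, 0.657 ± 0.0122 at day 3, 1.13 ± 0.0124 at day 6 and 1.2 ± 0.0307 at day 9. A17G000594 fell at day 3, by 0.24 on the log2 scale (limma adjusted p 9.22e-04), and it rose by 1.93 at day 6 and 1.90 at day 9 against day 0 (adjusted p of 3.95e-12 and 4.56e-12). The AMD1 genes A04G001121 and B04G001107 rose as well, to 93.2 ± 0.637 and 217 ± 2.87 FPKM at day 6, against 50.4 ± 1.58 and 106 ± 2.2 at day 0. Their log2 changes against day 0 were -0.282 and -0.172 at day 3, and 0.875 and 1.02 at day 6. On those days B17G000516 changed by 0.01 and 2.94, PRODH A04G001115 by 0.72 and 2.96, and PRODH B04G001098 by 0.55 and 1.90. Whether the changes of B17G000516 were nearer to those of AMD1 or PRODH genes was not tested. The PRODH genes other than B17G000516 summed to 4.6 ± 0.105 FPKM at day 0, 7.55 ± 0.301 at day 3, 33.8 ± 1.4 at day 6 and 24.22 ± 0.0643 at day 9.

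**Figure D4:**
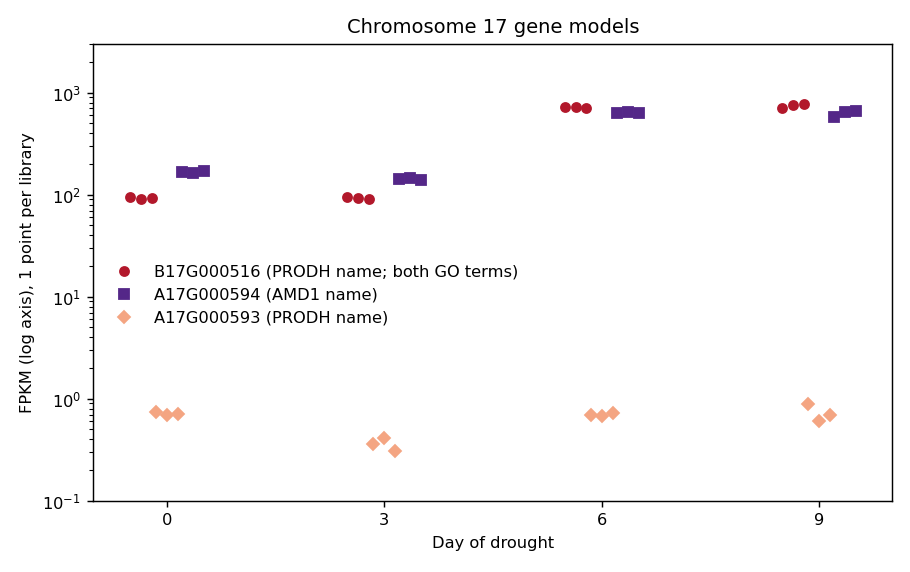
FPKM on a log axis of B17G000516, the AMD1 gene A17G000594 and the PRODH gene A17G000593 by day of drought, 1 point per library. B17G000516 and A17G000594 lie between 90.7 and 777 FPKM and are both high at days 6 and 9, while A17G000593 lies between 0.31 and 0.88 FPKM.

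FPKM is scaled by length, so levels can be summed over genes. The 4 P5CS genes together had 31.59 ± 1.6 FPKM at day 0, 33.48 ± 0.445 at day 3, 38.32 ± 0.652 at day 6 and 48.34 ± 1.69 at day 9 (SD, n = 3 each). The ratio of summed P5CS to summed PRODH, without B17G000516, was 6.87 ± 0.483 at day 0, 4.44 ± 0.147 at day 3, 1.14 ± 0.0662 at day 6 and 2.0 ± 0.0722 at day 9. With B17G000516 included the ratio was 0.325 ± 0.0241, 0.333 ± 0.00207, 0.0509 ± 0.00134 and 0.0624 ± 0.00414 on those days. Without B17G000516, the level of P5CS relative to the other PRODH genes was thus lowest at day 6. The ratio with B17G000516 was also lowest then, but that gene made up between 92.3% and 97.0% of its PRODH sum. Since the gene's reads cannot be assigned to PRODH alone, that ratio cannot be read as one of P5CS to PRODH. The ratio without B17G000516 leaves out any PRODH part of that gene's level, so it does not give the balance of the whole families either. These sums carry no test.

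The letter and number in each ID are read here as the subgenome and the chromosome, which gives 4 pairs of an A and a B copy. Whether a pair kept its ratio over the days was tested on log2 of the ratio of (FPKM + 1) in each library. An exact permutation test ran over all assignments of the 12 libraries to 4 days, with adjustment over the 4 pairs. It counts assignments whose spread between day means is at least the observed one, so it has no direction. The smallest p this test can give is 6.49e-05. The authors' treatment of reads that match both copies is not given in the sources here, and a split of such reads between copies makes the levels of single copies uncertain.

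For the P5CS pair on chromosome 8, the A copy made up 31.2% ± 1.24 of the pair at day 0, 37.7% ± 1.33 at day 3, 50.5% ± 0.967 at day 6 and 48.2% ± 0.472 at day 9 (SD, n = 3 each). The ratio differed between days, with an exact permutation p of 6.49e-05 and an adjusted p of 2.6e-04. At day 6 the copies were at 8.85 ± 0.0603 (A) and 8.68 ± 0.365 (B) FPKM, and at day 0 at 4.05 ± 0.0757 (A) and 8.97 ± 0.62 (B). The A copy of the PRODH pair on chromosome 4 made up 58.2% ± 5.82 at day 0, 60.7% ± 3.09 at day 3, 73.5% ± 2.69 at day 6 and 68.3% ± 1.22 at day 9, and its ratio also differed between days (adjusted exact permutation p of 6.49e-04).

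In the P5CS pair on chromosome 10 the share was 46.0% ± 2.11 at day 0, 52.9% ± 1.48 at day 3, 49.6% ± 2.07 at day 6 and 52.1% ± 3.02 at day 9. That change was small, and its adjusted exact permutation p of 0.0219 rose to between 0.051 and 0.0899 when any one of 5 libraries was left out (libraries 1 and 2 of day 0, 1 and 3 of day 3, and 3 of day 9). For the chromosome 17 pair, A17G000593 was 0.771% ± 0.00942 of the summed level at day 0 and 0.0968% ± 0.00368 at day 6, with an adjusted exact permutation p of 6.93e-04. Because B17G000516 carries a second enzyme's annotation, this is a comparison of gene models and cannot be read as a ratio of PRODH copies. The shares are of FPKM, while the test added 1 to each level. A17G000593 lay under 1 FPKM in every library, so the tested ratio mostly follows the level of B17G000516.

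**Figure D5:**
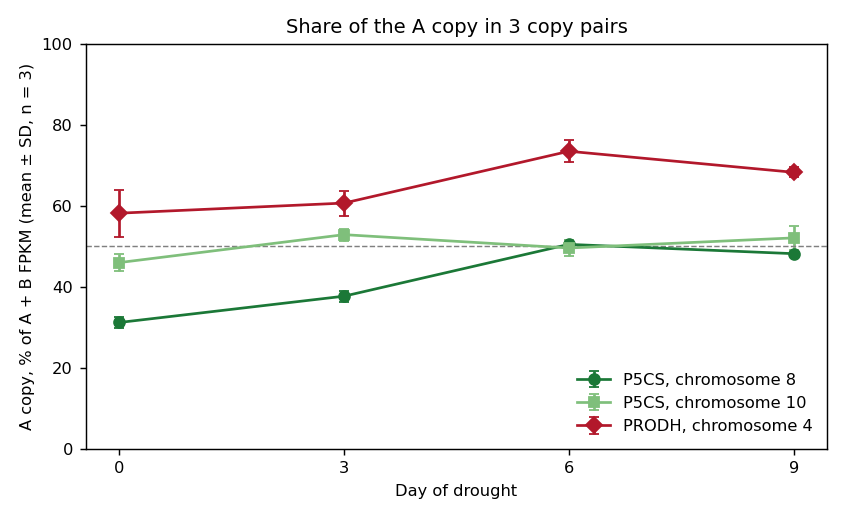
Share of the A copy in the summed FPKM of an A and B pair, in percent, by day of drought for both P5CS pairs and the PRODH pair on chromosome 4; points are means and bars SD (n = 3), and the dashed line marks equal levels. The A copy of the chromosome 8 P5CS pair is at 31.2% at day 0 and 50.5% at day 6, and that of the PRODH pair at 58.2% and 73.5%.

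The steps next to P5CS and PRODH have few genes. Against day 0, 22.6% of all tested genes rose and 25.2% fell at day 3. The shares were 29.2% and 47.6% at day 6, and 30.9% and 46% at day 9. P5C reductase (proC), which completes proline synthesis, had 2 tested genes. At day 6 against day 0, 1 of them fell, B06G002467 (Pag.B06G002467.v3.1), to 4.68 ± 0.171 FPKM at day 6, against 6.08 ± 0.24 at day 0 (log2 change -0.32, limma adjusted p 0.00544). With median-ratio scaling it was not called, and neither gene passed at days 3 and 9. A fall in 1 of 2 genes is near the 47.6% of all tested genes that fell at day 6. P5C dehydrogenase, which follows PRODH, had 3 genes, of which 2 were tested and both rose at days 6 and 9. B15G000841 (Pag.B15G000841.v3.1), the more abundant of them, had 19.0 ± 1.39 FPKM at day 6, against 9.62 ± 0.296 at day 0, and its log2 changes were 0.91 at day 6 and 0.76 at day 9 (limma adjusted p 3.39e-07 and 1.74e-06). The single gene for ornithine aminotransferase, A11G000953 (Pag.A11G000953.v3.1), whose enzyme feeds ornithine into the same intermediate, rose to 23.6 ± 0.34 FPKM at day 6, against 16.5 ± 0.799 at day 0 (limma adjusted p 3.91e-06).

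Counts of called genes in the supply of glutamate, the substrate of P5CS, stand against 22.6% of all tested genes rising and 25.2% falling at day 3, 29.2% and 47.6% at day 6, and 30.9% and 46% at day 9. All 4 genes of the NADH type of glutamate synthase (GLT1) rose at days 3, 6 and 9 against day 0, with median log2 changes of 0.96, 1.31 and 1.37. All 4 of the ferredoxin type (GLU), the main form in green leaves, fell on the same days, with medians of -0.51, -1.37 and -1.49. GLT1 B15G001306 (Pag.B15G001306.v3.1) had 18.0 ± 0.293 FPKM at day 6, against 7.91 ± 0.2 at day 0, and GLU A06G002716 (Pag.A06G002716.v3.1) 16.3 ± 0.475 at day 6, against 24.8 ± 1.13 at day 0. Of 21 tested genes for glutamine synthetase (glnA), 16 fell and 2 rose at day 6, against 47.6% of all tested genes falling and 29.2% rising. With median-ratio scaling 13 fell and 4 rose, against 37.8% and 38.5% of all tested genes. In the glutamate dehydrogenase entry GLUD1_2, 4 of 8 tested genes rose and 4 fell at day 6, a share of falls near the 47.6% of all tested genes. Glutamate decarboxylase (GAD), which draws glutamate into gamma-aminobutyrate, rose in 5 of 7 tested genes at days 6 and 9, against 29.2% and 30.9% of all tested genes. At day 3 it rose in 2 of 7, near the 22.6% of all tested genes, and the others did not pass. Its most abundant gene, B12G000496 (Pag.B12G000496.v3.1), had 149 ± 2.64 FPKM at day 6, against 48.1 ± 1.76 at day 0. GAD B08G001054, counted among the rises, had a mean of 0.02 FPKM at day 3 and 1.62 at day 9. It passed the filter only through its late days, which favours a rise.

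Ornithine and arginine genes, 23 tested, rose in 9 cases and fell in 11 at day 6 (median log2 change -0.09), against 29.2% of all tested genes rising and 47.6% falling, so the share that fell was near that of all tested genes. With median-ratio scaling 12 rose and 10 fell (median 0.15), against 38.5% and 37.8%. Polyamine genes, 31 tested, rose in 17 cases and fell in 12 at day 6 (median 0.79), against the same 29.2% and 47.6%, and with median-ratio scaling 17 rose and 9 fell, against 38.5% and 37.8%. Those that rose included 4 of 6 tested AMD1 genes (the other 2 fell, 1 of them also with that scaling). Both tested genes of the 6 for ornithine decarboxylase (ODC1) rose, as did 5 of 6 tested genes of the PAO4 entry of polyamine oxidases. ODC1 A05G002484 and AMD1 A18G000545, at 0.137 and 0.107 FPKM at day 0, passed the filter only through days 6 and 9, which favours a rise. PAO4 B05G002069 (Pag.B05G002069.v3.1) had 94.9 ± 1.1 FPKM at day 6, against 22.9 ± 0.734 at day 0. Both genes of the SMOX entry fell at day 6, with a median of -1.57. In the PAO1 entry of polyamine oxidases, 4 of 7 tested genes rose and 3 fell at day 6. Its most abundant gene, A15G000709 (Pag.A15G000709.v3.1), had 0.737 ± 0.15 FPKM at day 6, against 30.3 ± 2.28 at day 0. The 29.2% and 47.6% of all tested genes stand beside these counts too. Prolyl 4-hydroxylase (P4HA), which modifies proline within proteins, rose in 3 of 12 tested genes and fell in 7 at day 6, shares near the 29.2% and 47.6% of all tested genes. With median-ratio scaling it rose in 4 and fell in 3, against 38.5% and 37.8%. Of all genes that the table assigns to the KEGG map of arginine and proline metabolism, a set chosen after the table was seen, 110 were tested, and 48 rose and 46 fell at day 6, against 29.2% and 47.6% of all tested genes, with a median of -0.04 against -0.21 over all tested genes.

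The genes whose pattern was nearest to a P5CS or PRODH gene were found by Pearson's r of log2(FPKM + 1) over the 12 libraries, among tested genes with a KO name. Of each KO name, only the nearest gene was listed. These r rest on 4 days of 3 libraries, carry no p and follow the steps between days. P5CS A10G002123, with the highest mean level of its family, was nearest to a pyruvate dehydrogenase subunit gene (PDHA, Pag.A02G000882.v3.1, r = 0.977), at 137, 164, 152 and 199 FPKM at days 0, 3, 6 and 9, followed by genes named ADIPOR (0.977), CYP86A4S (0.973), NAF1 (0.972) and GPAT (0.970). B17G000516 was nearest to a gene named DODA (Pag.B04G001424.v3.1, r = 0.999), at 37.9, 37.1, 146 and 147 FPKM on those days, followed by a laccase gene and genes named ALDH and ALKBH5. Counted over all tested genes with a KO name, not 1 per name, the AMD1 gene A17G000594 was 46th with r = 0.996. Chosen after their values were seen, PRODH A04G001115 was nearest to a beta-amylase gene (Pag.A01G001702.v3.1, r = 0.999), at 27.1, 39.1, 115 and 91.6 FPKM on those days. P5CS A08G001927 was nearest to a gene named ABCG2 (Pag.B06G000864.v3.1, r = 0.998), at 5.09, 8.40, 40.0 and 59.0 FPKM.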

How the data were processed

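Values were FPKM for each gene model and library in a table deposited by the authors. Which aligner, genome build and FPKM program were used is not stated by any source used here, and no read counts were used. FPKM sums lay between 684857 and 732119 per library. Relative depth, read from the most frequent ratio of values between 0.2 and 0.8 FPKM to those of library 1 of day 0, lay between 0.877 and 1.11. Mean columns in the deposited table equalled the means of the 3 libraries of a day. Deposited subset tables for days 3 and 6 were identical, with 5882 genes and 0 of the 8 genes described, and the table for day 9 held 18590 genes and 4 of the 8 (A04G001115, B04G001098, B17G000516 and A08G001927). They were used for this listing only.

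Libraries were grouped by the day in their titles. Genes at 1 FPKM or more in 3 or more of the 12 libraries were kept, and their log2(FPKM + 1) was fitted with 1 mean per day in limma 3.58.1 (R 4.3.3) with intensity trend and robust moderation, and Benjamini-Hochberg adjustment ran over all tested genes within each comparison, with calls under 0.05. Python 3.11.15 with pandas 2.3.3 and numpy 2.4.6 gave copy ratios and sums, and matplotlib 3.10.9 the figures. The fit was tested on simulated data. Alternatives were another pseudocount (0.1), other filters, median-ratio scaling, other moderation, a fit of the days compared, a replicate block and leaving out each library.

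The genes described and the lists of neighbouring steps were chosen with earlier results of these data known. Lists went by KO symbol and held 169 genes, 120 of them tested. Unlike the 7 tested P5CS and PRODH genes, listed genes could pass the filter through their high days alone. For such genes the filter favours a call in that direction. A further 35 genes were left out because their symbol matched the list's letters but names another protein (aquaporins PIP, pheophorbide a oxygenase, radA). Where a gene is named for a symbol, it is the one with the highest mean FPKM, and not every symbol has a named gene. A04G001121 and B04G001107 were added after their values were seen, as were the genes named for how they passed the filter. No sequences are shown, since no reference sequence was used here.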

Additional observations from a re-analysis of the deposited data

Results flagged for a closer look

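Tests between successive sampled drought days found changes that differed from one day to the next. At day 6 against day 3, adjusted p under 0.05 from limma was reached by PRODH A04G001115 with a log2 change of 2.24, PRODH B04G001098 with 1.35, B17G000516 with 2.94 and P5CS A08G001927 with 0.75, where 25.7% of all tested genes rose. At day 9 against day 6, all 4 P5CS genes rose, where 12.9% of all tested genes did. Their log2 changes were 0.21 for A08G001927, 0.33 for B08G001857, 0.40 for A10G002123 and 0.27 for B10G001897, and the last of these was lost under several alternatives. PRODH A04G001115 moved the other way at day 9 against day 6, with a log2 change of -0.57, where 8.73% of all tested genes fell. Both comparisons use the day 6 libraries, with opposite sign, so a deviation of those libraries moves the changes of a gene in opposite directions.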

How the results depend on the processing

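The calls against day 0 of A04G001115, B04G001098, A08G001927 and A10G002123 at days 3, 6 and 9, of B17G000516 at days 6 and 9, and of B08G001857 and B10G001897 at day 9 held in all 13 alternatives run for each. With median-ratio scaling, day 6 against day 3 had 7 genes of both families called higher in place of 4, A10G002123 turned to 0.186 there, and B08G001857 turned to 0.208 at day 6 against day 0. That scaling also moved the share of rises among all called genes to 50.5% at day 6, 50.1% at day 9 and 50.8% at day 6 against day 3, against 38.0%, 40.2% and 35.4% as reported, and to 42.9% at day 9 against day 6, against 59.7%. With no filter on low values, 1 gene of the families (A17G000593) was called lower at day 3 against day 0. The number called lower at day 3 lay between 0 and 1 with 1 library left out. The uncalled day 3 change against day 0 turned in sign with 1 library left out for B10G001897, to 0.0156 (without library 2 of day 0) and 0.00119 (without library 3 of day 3) within a range from -0.0819 to 0.0156, and for B17G000516, to -0.00895 (without library 2 of day 0) and -0.0062 (without library 1 of day 3) within a range from -0.00895 to 0.0258. Without library 1 of day 9, the rise of B17G000516 at day 9 against day 6 was called at 0.1 (adjusted p of 0.0424 from limma). With only genes of a mean of at least 5 FPKM, fewer genes were tested, and 18796 were called at day 6 against day 0, 18858 at day 9 and 17938 at day 6 against day 3, in place of 31292, 31317 and 29560. The range of day means of the chromosome 10 P5CS ratio lay between 0.303 and 0.414 with 1 library left out.

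The replicate block gave 18880, 31079 and 31120 genes called against day 0 at days 3, 6 and 9, and 4, 5 and 7 called higher in the P5CS and PRODH families. Deviations of same-numbered libraries correlated between -0.0268 and 0.0381, and those of differently numbered ones between -0.0321 and 0.038. Of the 12 libraries, 2 correlated best with their own number. No deviation shared by number was thus seen, which cannot show that same-numbered libraries are unrelated. Depth was known only in relative terms, which gives no counting error for A17G000593 at under 1 FPKM. Where scaling or a left-out library changed a call, the cause was not tested.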
